A study of Mus musculus with 4 samples.

Results

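Mitochondrial ribosomal proteins are encoded in the nucleus, and 27 of their genes carried a peak of XBP1s in mouse natural killer (NK) cells. The genes were taken from the authors' table of annotated peaks as protein-coding genes with an Mrpl or Mrps symbol that were nearest to a peak centred within 5000 bp of their transcription start site (TSS). They are 18 genes with a large subunit symbol (Mrpl) and 9 with a small subunit symbol (Mrps), out of 49 and 29 such genes in RefSeq, and each had exactly 1 peak. These 27 peaks stand beside 3805 peaks near the start of any protein-coding gene and 4890 peaks in all. The rule selects genes that have a peak, so the counts of genes with a peak are descriptions and were not tested.

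The study measured where XBP1s binds, by chromatin immunoprecipitation and sequencing (ChIP-seq). NK cells, lymphocytes that kill infected and transformed cells, came from the spleens of Il15TgXbp1f/f mice (strain label C57BL/6), whose floxed Xbp1 allele is named without a Cre, and all received IL-15 at 50 ng/ml for 1 h. The 4 libraries are 2 precipitations with an antibody against XBP1s and 2 inputs without antibody. The peaks form 1 combined list with no value for any single library, so no width or position below has a replicate error, the depth behind it is unknown, and the labelled cell type could not be checked against expression of its markers. There is no untreated group, so no effect of IL-15 can be read from the list.

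XBP1s is the spliced form of a transcription factor that is best known for switching on genes of the endoplasmic reticulum when secretory load rises. The mitochondrial ribosome is a separate machine: it translates the few proteins that the mitochondrial genome encodes, all of them parts of the respiratory chain and ATP synthase. Its large subunit forms peptide bonds and its small subunit reads the messenger RNA. Many of its proteins have a counterpart in the bacterial ribosome and others do not. Promoters of nuclear genes for mitochondrial proteins often hold sites for the factors NRF1 and GABP, a member of the ETS family.

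The sequence under the peaks is shown for 5 promoters, which hold the widest intervals with a RefSeq promoter entry in each subunit and 1 further start shared with a neighbour. Each window of GRCm38.p6, the assembly of mm10, runs from 250 bp before a gene's start to 50 bp into the gene and is written in the direction of the gene. Capitals mark 4 words searched on both strands: GACGTG (part of the unfolded protein response element), CCGGAAG (ETS and GABP), GCGCATGC (NRF1) and AAGATGGC (YY1). Mrps28, whose interval was the widest, has no entry in the promoter table.
Mrpl17, chr7:105811038-105811337, minus strand, all 300 bp inside its interval: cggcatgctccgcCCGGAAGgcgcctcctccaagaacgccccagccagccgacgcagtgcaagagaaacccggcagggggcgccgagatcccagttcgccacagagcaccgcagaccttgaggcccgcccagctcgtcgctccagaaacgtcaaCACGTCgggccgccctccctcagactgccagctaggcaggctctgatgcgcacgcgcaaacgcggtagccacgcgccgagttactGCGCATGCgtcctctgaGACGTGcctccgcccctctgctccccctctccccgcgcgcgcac
Mrpl48, chr7:100591365-100591664, minus strand, 113 bp inside its interval: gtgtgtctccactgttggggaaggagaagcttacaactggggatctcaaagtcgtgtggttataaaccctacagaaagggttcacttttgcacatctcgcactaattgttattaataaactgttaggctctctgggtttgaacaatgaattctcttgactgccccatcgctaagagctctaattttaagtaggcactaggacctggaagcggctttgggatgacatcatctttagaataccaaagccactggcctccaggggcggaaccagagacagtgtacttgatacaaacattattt
Mrps12, chr7:28741772-28742071, minus strand, all 300 bp inside its interval: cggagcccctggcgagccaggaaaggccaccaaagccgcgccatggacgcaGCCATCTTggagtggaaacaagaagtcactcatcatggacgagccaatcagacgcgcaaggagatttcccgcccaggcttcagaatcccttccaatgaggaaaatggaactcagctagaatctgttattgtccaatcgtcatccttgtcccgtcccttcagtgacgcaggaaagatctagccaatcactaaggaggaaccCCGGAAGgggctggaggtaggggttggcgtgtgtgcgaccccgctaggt
Mrps14, chr1:160194965-160195264, plus strand, all 300 bp inside its interval: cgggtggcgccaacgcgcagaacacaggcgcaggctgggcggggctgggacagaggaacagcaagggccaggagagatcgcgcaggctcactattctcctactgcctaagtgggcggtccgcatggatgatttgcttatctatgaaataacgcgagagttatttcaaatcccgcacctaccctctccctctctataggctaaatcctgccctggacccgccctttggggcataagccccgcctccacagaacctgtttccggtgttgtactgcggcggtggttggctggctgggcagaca
Mrpl27, chr11:94653541-94653840, plus strand, 288 bp inside its interval: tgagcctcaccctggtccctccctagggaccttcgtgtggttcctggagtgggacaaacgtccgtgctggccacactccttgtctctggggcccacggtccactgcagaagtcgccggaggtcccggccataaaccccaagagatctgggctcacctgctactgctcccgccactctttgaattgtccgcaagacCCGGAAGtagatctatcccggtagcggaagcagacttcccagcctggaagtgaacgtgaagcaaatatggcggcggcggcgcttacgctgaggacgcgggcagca
Mrpl17 held GACGTG once on each strand, GCGCATGC and CCGGAAG, which makes it the printed window with the most words. The Mrps12 window held CCGGAAG and AAGATGGC, that of Mrpl27 held CCGGAAG once, and those of Mrpl48 and Mrps14 held none of the 4.

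A peak was listed for 27 of the 78 Mrpl and Mrps genes, or 34.6% (exact Clopper-Pearson 95% interval 24.2 to 46.2, which covers counting error only), beside 15.9% of all 21900 protein-coding genes. The large subunit genes stood at 18 of 49 (36.7%, 23.4 to 51.7) and the small subunit genes at 9 of 29 (31.0%, 15.3 to 50.8), so each share lies within the interval of the other. Genes with a counterpart in the bacterial ribosome had a peak in 16 of 46 cases (34.8%, 21.4 to 50.2) and those without one in 11 of 32 (34.4%, 18.6 to 53.2). Within the large subunit the counts were 10 of 28 for proteins with a bacterial counterpart and 8 of 21 for the others. Within the small subunit they were 6 of 18 and 3 of 11. No split of the family by subunit or by ancestry set one side apart by these counts. Subunits follow the gene symbols; Mrps18a and Mrps30 encode proteins that structures place in the large subunit, and of these only Mrps18a had a peak.

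Peaks sat on the start of the genes. All 27 centres lay between 70 bp upstream and 342 bp downstream of the TSS by the authors' distances, with a median of 75 bp downstream (interquartile range -14.5 to 142). For all 3805 peaks the median was 49 bp (-96 to 176), and 91.5% lay within 1000 bp. The TSS itself fell inside the interval at 21 of 27 genes (77.8%), compared with 62.7% of all such peaks. It did so at 16 of 18 large subunit genes and at 5 of 9 small subunit genes. The 6 intervals that began downstream of the TSS were those of Mrpl23, Mrpl33, Mrps18a, Mrps24, Mrps34 and Mrps36. HOMER, the authors' annotation program, called 18 of the 27 a promoter, 5 an intron, 3 an exon and 1 a 5' untranslated region. In percent the promoter class took 66.7%, against 64.2% of all such peaks. The detailed label was CpG for 3 of the 27 (11.1%), against 10.1% of all such peaks. The distance limit left out Mrps27, whose only peak lay at 8613 bp (744 bp wide), and 28 genes had a peak at any distance. It also left out a second interval assigned to Mrpl33, at 20254 bp (233 bp wide). That interval begins at 31634089, beyond the end of Mrpl33 at 31622644, and is annotated to an intron of another transcript (NM_153196). The outermost peak included was that of Mrpl23 at 342 bp.

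**Figure D1:**
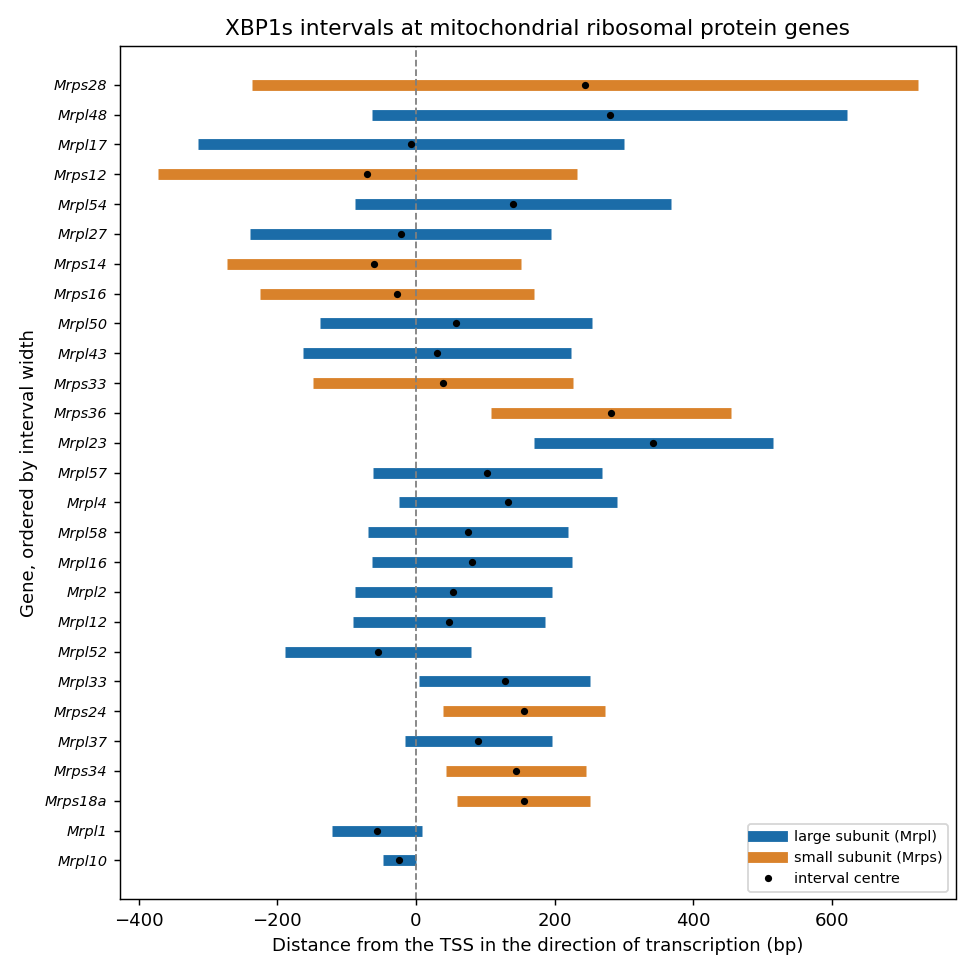
Each bar is the interval at 1 gene, placed by distance from the TSS in bp (negative is upstream) and ordered by width, with a dot at its centre; blue is the large and orange the small subunit. At 21 of 27 genes the bar crosses the dashed line at the TSS, and the bar reaching furthest upstream, that of Mrps12, starts at -372 bp.

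Intervals at these genes had a lower median width than all such peaks, with an overlapping interquartile range. Width is the length of the listed interval, not a measure of signal, since the deposited score is 0 for every peak. The median was 330 bp (interquartile range 257.5 to 409.5; 95% interval of the median from order statistics 268 to 395), against 395 bp for all 3805 peaks (268 to 602). Large subunit genes had a median of 301.5 bp (n = 18, range 48 to 685) and small subunit genes of 374 bp (n = 9, range 193 to 960). The ranges overlap from 193 to 685 bp, and no test of the difference was made. Of the 27 intervals 7 exceeded the overall median. None exceeded 1000 bp, compared with 7.46% of all such peaks.

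**Figure D2:**
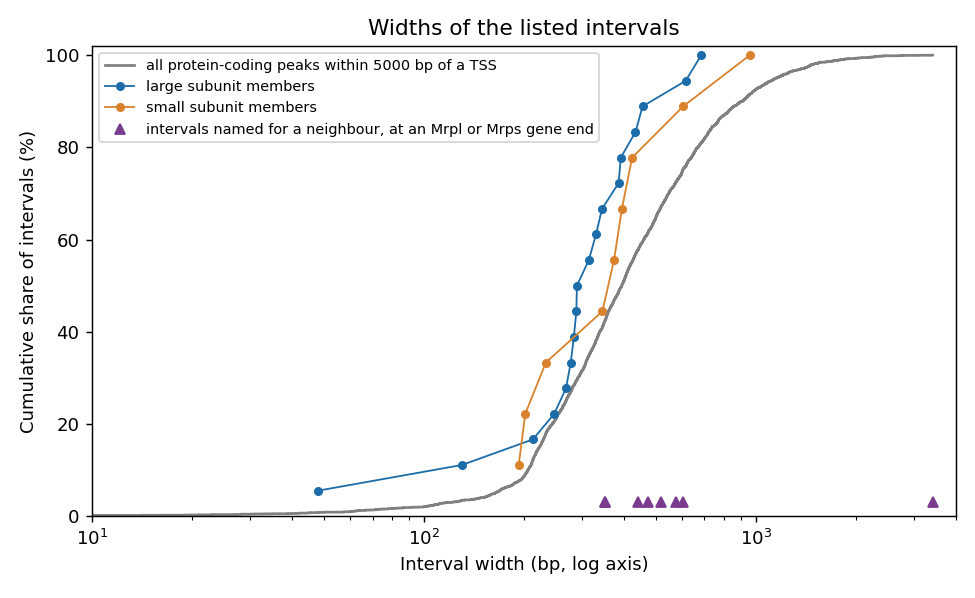
Cumulative share of intervals (%) against width in bp on a log axis, for the 18 large and 9 small subunit genes and for all 3805 peaks near protein-coding genes (grey); triangles at the foot mark 8 intervals named for a neighbour that lie at an Mrpl or Mrps gene end. Both subunit curves reach 100% below 1000 bp, and 1 triangle lies at 3413 bp.

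The small subunit held the widest interval. Mrps28, the counterpart of bacterial S1, had 960 bp at chr3:8923135-8924094, centred 243 bp downstream of the TSS over exon 1 of 3, wider than 91.4% of all such peaks. Mrps12, a protein of the decoding site, had 604 bp at chr7:28741590-28742193, centred 70 bp upstream and classed as promoter. Mrps14 had 424 bp at chr1:160194943-160195366, centred 61 bp upstream. Mrps16 had 395 bp at chr14:20393464-20393858, centred 27 bp upstream; the interval covers both of the starts that RefSeq lists for it, at 20393490 and 20393634. The centres at Mrps12, Mrps14 and Mrps16 thus lay upstream of the TSS, and those of the other 6 small subunit intervals lay downstream. Mrps33, which bacteria lack, had 374 bp centred 39 bp downstream. Mrps36 had 345 bp in intron 1 of 3, centred 281 bp downstream and labelled CpG; its product is now known mainly as a part of the 2-oxoglutarate dehydrogenase complex. Mrps24, the counterpart of S3, had 233 bp over exon 2 of 4, centred 156 bp downstream. At the narrow end stood Mrps34 with 202 bp (chr17:24895164-24895365, 144 bp downstream) and Mrps18a with 193 bp (chr17:46111063-46111255, in intron 1 of 5, 155 bp downstream, labelled CpG).

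Large subunit genes with a bacterial counterpart, other than those of the stalks, numbered 7. Mrpl17 had 615 bp at chr7:105810787-105811401, centred 7 bp upstream of the TSS and classed as promoter. Mrpl27, whose bacterial counterpart reaches towards the transfer RNAs at the peptidyl transferase centre, had 434 bp at chr11:94653553-94653986, centred 22 bp upstream. Mrpl2 had 283 bp centred 54 bp downstream, Mrpl16 had 288 bp at 81 bp, and Mrpl4 had 314 bp at 133 bp in the 5' untranslated region. Mrpl23, which lines the exit of the tunnel, had 344 bp in intron 1 of 4, 342 bp downstream. Mrpl33 had 247 bp in intron 1 of 3, centred 128 bp downstream and labelled CpG. All 7 widths lie between 247 and 615 bp, and those of Mrpl2, Mrpl16 and Mrpl33 are below the large subunit median of 301.5 bp.

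Mrpl10, Mrpl1 and Mrpl12 encode proteins of the stalks, the mobile arms of the large subunit that handle translation factors and departing transfer RNA. Mrpl10, the base of the factor-binding stalk, had only 48 bp (chr11:97041535-97041582), ending at the TSS and wider than just 0.788% of all such peaks. Mrpl1, of the stalk on the other side of the subunit, had 130 bp (chr5:96209995-96210124), centred 56 bp upstream. Mrpl12, the factor-binding protein held by Mrpl10, had 277 bp centred 48 bp downstream. Mrpl10 and Mrpl1 thus had the narrowest intervals of the 27, followed by Mrps18a, Mrps34 and Mrpl37, while Mrpl12 ranked 19 of 27 from the widest.

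Genes for proteins without a counterpart in the bacterial ribosome made up the rest of the large subunit. Mrpl48 had 685 bp (chr7:100590793-100591477, intron 1 of 7 of a noncoding transcript, centred 279 bp downstream of the TSS), the widest of the large subunit. The detailed label of this interval is GC-rich, low-complexity sequence. Mrpl54 followed with 456 bp (chr10:81266559-81267014, exon 1 of 3, centred 140 bp downstream). Mrpl50 had 392 bp (chr4:49520830-49521221, 58 bp downstream) and Mrpl43 386 bp (chr19:45006220-45006605, 30 bp downstream). Mrpl57 had 330 bp, Mrpl52 268 bp and Mrpl37 213 bp (chr4:107066670-107066882, 90 bp downstream). Mrpl58, a hydrolase that releases stalled peptides, had 289 bp centred 75 bp downstream. These 8 spanned 213 to 685 bp.

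Of the 27 genes, Mrpl48 had the interval farthest from either end of its gene. Its interval lay at an internal start, listed by RefSeq at 100591414 on the minus strand, and 16824 bp from the outermost start at 100608301. A separate interval of 469 bp (chr7:100607277-100607745) covers another listed Mrpl48 start at 100607622, and the table assigns it to Rab6a, a gene of Golgi transport, with its centre 75 bp upstream of that gene's TSS. Mrpl48 thus had intervals at both of these starts, of which only the internal one carries its name, and the outermost start lay 556 bp from the Rab6a interval. At 25 of the 27 genes the interval lay within 1000 bp of an end of the gene as RefSeq draws it; the others were Mrpl48 and Mrpl4 (1462 bp).

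Many of the intervals lay close to a neighbouring gene. At 12 of 27 genes (44.4%) another protein-coding gene had an end inside or within 1000 bp of the interval, compared with 21.7% of all 3805 such peaks. The large subunit had 9 of 18 and the small subunit 3 of 9. With only ends inside the interval counted, the number was 7 of 27 (25.9%) against 9.49%. Where RefSeq lists promoter starts for both genes, 7 of these pairs are divergent, with starts on opposite strands pointing apart. The spacing of their starts was 48 bp for Mrpl27 and Eme1, 76 bp for Mrpl57 and Ska3, and 93 bp for Mrpl50 and Zfp189. It was 116 bp for Mrpl43 and Twnk, 128 bp for Mrpl37 and Cyb5rl, 141 bp for Mrpl2 and Klc4, and 147 bp for Mrps12 and Sars2. Pairs so close cannot be assigned to either gene by position alone: 4 of the 7 intervals hold the listed starts of both, and the centre was nearer to the Mrpl or Mrps start in all 7, which follows from the authors' assignment to the nearest TSS. The listed starts of Ska3, Klc4 and Cyb5rl lay outside the interval, but an end of each of these genes lay inside it. At Mrps12 the centre lay 70 bp from its own TSS and 76.5 bp from the start of Sars2.

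Some of these neighbours also serve mitochondria. Sars2 encodes the mitochondrial seryl-tRNA synthetase and Twnk the helicase that unwinds mitochondrial DNA when it is copied. Eme1 encodes a partner of a DNA structure-specific nuclease, and Ska3 a protein of the spindle attachment to chromosomes. The Mrps28 interval holds no protein-coding neighbour, but an end of the lncRNA gene Gm52601. The remaining 5 cases were not listed as divergent from promoter entries of both genes. Cfap70 (332 bp from the Mrps16 interval) and Hgs (563 bp from that of Mrpl12) reach it with an end while their nearest listed start lies 58367 and 16912 bp away. Apba3 has an end inside the Mrpl54 interval and its nearest listed start 1158 bp from it. Eme2 starts 77 bp from the Mrps34 interval, at its upper end of 24895087, and Mrps34 begins at 24895120. These positions make the pair divergent too, although Mrps34 has no promoter entry. Lrrc46 has an end 166 bp from the Mrpl10 interval. Strand relations of Apba3 and Lrrc46 to their partners were not read, since 1 side of each pair has no promoter entry. A divergent protein-coding start within 1000 bp was listed for 7 of 23 genes with a peak and a promoter entry (30.4%) and for 17 of 46 other Mrpl and Mrps genes (37.0%), so divergent starts also occurred at genes without an assigned peak. Among all protein-coding genes the share was 14.2% of 2899 with a peak and 8.48% of 17492 in all.

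Some intervals named for other genes also lay at an end of an Mrpl or Mrps gene, and position alone does not assign them to either. Of the 51 without an assigned peak within 5000 bp, 8 had an interval of another gene within 1000 bp of a gene end (15.7%, exact Clopper-Pearson 95% interval 7.02 to 28.6), compared with 4.30% of 18366 other such genes. Mrps18b, a relative of bacterial S18, has its start inside the 3413 bp interval assigned to Ppp1r10 (chr17:35915749-35919161), the widest of the list. Mrpl47 begins inside the 517 bp interval of Ndufb5, which encodes a subunit of respiratory complex I (chr3:32736748-32737264). Mrpl30 begins inside the 352 bp interval of Mitd1 (chr1:37890181-37890532), and Mrps27 inside the 474 bp interval of Ptcd2 (chr13:99344496-99344969). Mrpl13 has an end inside the 441 bp interval of Mtbp (chr15:55557144-55557584). For Mrpl51 the interval of Ncapd2 (604 bp, chr6:125191580-125192183) ends 17 bp from its start. The interval of Fau, a cytosolic ribosomal protein gene (351 bp, chr19:6057812-6058162), lies 57 bp from the start of Mrpl49. That of Trim65 (573 bp, chr11:116130598-116131170) lies 647 bp from an end of Mrpl38. Each of these 8 is centred within 1000 bp of the TSS of the gene it is named for, from -295 bp (Ncapd2) to 259 bp (Ppp1r10). Mrpl18 joins them by a listed start 14 bp from the 601 bp interval of Tcp1 (chr17:12916105-12916705), although its outermost ends lie farther off; it was singled out after its value was seen. Together 36 of 78 genes had an interval of their own or of a neighbour at a start or end. An interval at a gene end was found for 34 of the 78 (43.6%, 32.4 to 55.3), against 17.5% of all protein-coding genes, and for 23 of 49 large (46.9%) and 11 of 29 small subunit genes (37.9%).

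The other 42 genes had no interval by any of these measures, 24 of the large and 18 of the small subunit. They include Mrpl3 and Mrpl11 of the large subunit, Mrps2, Mrps5 and Mrps7 of the small subunit, and Mrps30. For Mrps30 the nearest interval lay 1075230 bp from its start, and for Mrpl3 it lay 342024 bp away. Among those with a start in the promoter table Mrpl55 came closest, at 5627 bp. No interval in this list does not show that XBP1s is absent there.

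**Figure D3:**
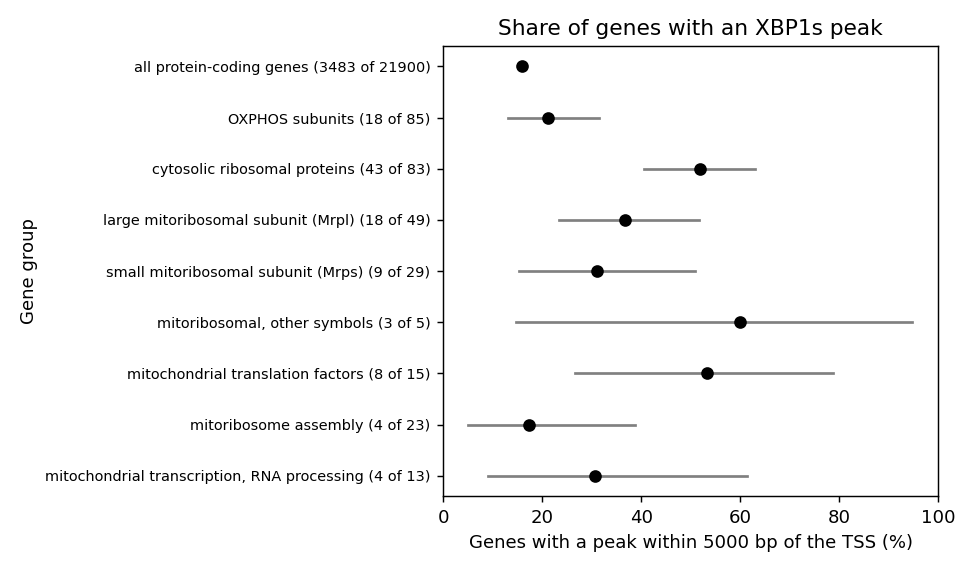
Share of genes (%) with a peak within 5000 bp of the TSS in each gene group, with the number of genes; lines are exact 95% Clopper-Pearson intervals, for counting error only. Large (36.7%) and small subunit genes (31.0%) lie between the OXPHOS (21.2%) and the cytosolic ribosomal protein genes (51.8%), and their intervals overlap both.

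Peaks were also listed at genes for other parts of mitochondrial translation, and the shares below stand beside 15.9% of all protein-coding genes. Of 5 mitochondrial ribosomal proteins that have no Mrp symbol, 3 had a peak: Ptcd3 (1011 bp, 133 bp upstream of the TSS), Chchd1 (433 bp) and Dap3, which encodes a GTP-binding protein of the small subunit (222 bp). The Ptcd3 interval is wider than every one at an Mrpl or Mrps gene. A further one, Gadd45gip1, has an end near an interval assigned to Dand5. Of 15 translation factors and activators, 8 had a peak (53.3%, exact 95% interval 26.6 to 78.7), with widths from 202 to 426 bp. They were the initiation factor gene Mtif2 (311 bp), the elongation factor gene Tsfm (230 bp), the release factor gene Mtrf1l (422 bp), Guf1 (255 bp), the formyltransferase gene Mtfmt (268 bp), the insertase gene Oxa1l (426 bp), Taco1 (339 bp) and Lrpprc (202 bp). Of 23 genes for ribosome assembly and rRNA modification, 4 had one (17.4%, 4.95 to 38.8), namely Mrm1 (820 bp), Tfb1m (474 bp), Rcc1l (384 bp) and Mtg1 (246 bp). Of 13 genes for mitochondrial transcription and RNA processing, 4 had one (30.8%, 9.09 to 61.4): Supv3l1 (680 bp), Trmt10c (502 bp), Elac2 (336 bp) and Tfam, which encodes the protein that packages mitochondrial DNA (230 bp). The intervals of these shares overlap each other and that of the Mrpl and Mrps genes, so no order among them is given.

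For comparison, cytosolic ribosomal protein genes, taken by symbol, had a peak in 43 of 83 cases (51.8%, exact 95% interval 40.6 to 62.9), with a median interval of 435 bp over 45 peaks (interquartile range 297 to 599) and a maximum of 1995 bp. Genes with symbols of respiratory chain and ATP synthase (OXPHOS) subunits had one in 18 of 85 cases (21.2%, 13.1 to 31.4), with a median of 351 bp and a maximum of 737 bp. The mitochondrial ribosomal genes, at 34.6% and 330 bp, thus stood between these in share and below both in median width, with intervals of the shares that overlap. Centres lay close to the TSS in all 3 groups, with medians of 75 bp for the mitochondrial ribosomal, 43 bp for the cytosolic ribosomal and 13.5 bp for the OXPHOS genes.

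In all 11 short words were counted in the promoter windows, on both strands and with overlaps allowed, for 23 of the 27 genes. Mrpl4, Mrpl54, Mrps28 and Mrps34 have no entry. Each window ends 50 bp into the gene, so interval sequence farther downstream was not searched. The interval overlapped 20 of the 23 windows and covered 3 of them in full. It did not touch 3 windows, those of Mrpl23, Mrps18a and Mrps36. The ETS and GABP word CCGGAAG was held by 10 of 23 windows (43.5%). It was held by 30.4% of 46 windows of Mrpl and Mrps genes without a peak, 26.1% of 2899 windows of protein-coding genes with a peak and 8.86% of all 32851 windows. The full set is unlike the others: it covers 27025 genes, more than the 21900 protein-coding ones, and some genes have several windows. The other groups have 1 window per gene. The split by subunit was 7 of 16 large and 3 of 7 small. In those 10 genes 13 copies were found, and 11 of them lay inside the interval. Positions counted from the first transcribed base ran from -237 bp at Mrpl17 to 38 bp at Mrps33. The copies began at -17 and -2 bp at Mrpl58, at -56 and -12 bp at Mrpl43 and at 1 bp at Mrps12.

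Words known for binding XBP1s were counted in the same windows, so the shares do not speak for interval sequence outside them. TGACGTGG, the unfolded protein response element, was in none of the 23 windows, as in none of the 46 windows of the other Mrpl and Mrps genes. It was in 1.90% of windows of protein-coding genes with a peak and 0.676% of all windows. The ER stress response element ERSE was in none of the 23 either, and in 0.379% of windows of genes with a peak. At shares this low, 0 of 23 windows does not set the Mrpl and Mrps genes apart from other genes with a peak. The shorter GACGTG, which TGACGTGG contains, was found at Mrpl17 and Mrpl50 (8.70%), compared with 14.3% of windows with a peak and 6.38% of all. CCACG, the part of ERSE next to the spacer, was in 14 of 23 (60.9%), against 56.4% and 32.8%. A copy lay inside the interval at Mrpl1, Mrpl17, Mrpl27, Mrpl43, Mrpl52, Mrps16 and Mrps24, and only outside it at the others. The core ACGT, which lies inside GACGTG and several other words, was in 11 of 23 (47.8%), against 52.4% and 30.9%. At Mrpl37, Mrpl52, Mrps24 and Mrps36 it lay only outside the interval.

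Of the remaining words, AAGATGGC (YY1) was in 4 of 23 windows (17.4%), those of Mrpl37, Mrps12, Mrps18a and Mrps24, thus 1 of 16 large and 3 of 7 small subunit windows, and in 17.4% of Mrpl and Mrps windows without a peak, compared with 6.31% of all windows of protein-coding genes with a peak and 2.75% of all windows. GCGCATGC (NRF1) was in 3 windows, of Mrpl10, Mrpl17 and Mrpl33 (13.0%). It was in 10.9% of the Mrpl and Mrps windows without a peak, 7.17% of windows with a peak and 2.71% of all. Of these copies, only those at Mrpl37 and Mrps12 (YY1) and at Mrpl17 (NRF1) lay wholly inside the interval. Mrpl16 held TGACGTCA, the cAMP response element, 49 bp upstream of its start and inside its interval (4.35%, against 5.14% of windows with a peak and 1.79% of all). The E-box CACGTG was in 8.70%, against 13.7% of windows with a peak and 7.15% of all, and neither copy, at Mrpl2 and Mrpl37, lay inside the interval. CCAAT was in 34.8%, against 1160 of 2899 windows with a peak and 37.4% of all. It lay inside the interval at Mrpl2, Mrpl50, Mrps12 and Mrps16 only. Median GC content was 60.3% in the 23 windows (interquartile range 56.7 to 63.0) and 57.7% in the 46 without a peak (52.7 to 64.3). The second range holds the first. The median was 62.0% in all 2899 windows with a peak (56.5 to 67.3) and 52.7% in all windows (45.7 to 61.7). The part of GC content in the word shares was not tested.

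**Figure D4:**
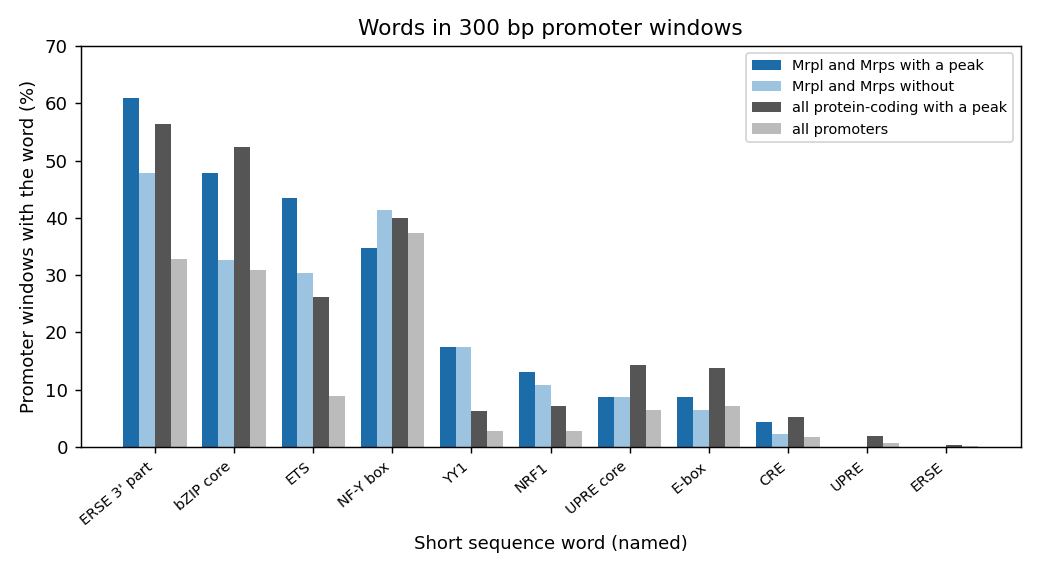
Share of 300 bp promoter windows (%) that hold each named word on either strand, for the 23 Mrpl and Mrps genes with a peak, the 46 without, all protein-coding genes with a peak and all promoters. The ETS word stands at 43.5% and 30.4% in the 2 Mrpl and Mrps groups and at 8.86% of all promoters, while the full unfolded protein response element was found in none of the windows of either.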

How the data were processed

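ChIP-seq of XBP1s in IL-15-treated NK cells was deposited as 1 table of 4890 intervals for the 4 libraries (2 precipitations, 2 inputs). Per the file headers, HOMER annotated an input called common with build mm10. Peak calling with MACS2 2.2.7.1 and alignment with Bowtie2 2.4.5 are listed in the submitters' processing notes, beside HOMER 4.11 and 4.11.1 and the read tools FastQC 0.11.9 and Trim Galore 0.6.7. The sources used here do not say how calls were combined, so what part of a call a width spans is not known. The score that the authors deposited is 0 throughout and was not used; depth is unknown. Positions, gene names, annotation classes and distances are the authors' own.

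Widths are end minus start plus 1. Genes were matched by Entrez number to RefSeq (GRCm38.p6), where 78 Mrpl and Mrps genes are protein-coding; 69 of them have promoter entries. For genes with several entries and a peak, the one with its start nearest the peak centre was used. The word search was tested on simulated data. Groups follow the labels, and no test was run: genes are not replicates. Every gene with a peak is named, with coordinates for the widest and narrowest intervals and for intervals named for neighbours. Members and lists were chosen with earlier results of these data known. Tables were handled with pandas 2.3.3 and NumPy 2.4.6 under Python 3.11.15, figures drawn with matplotlib 3.10.9 and exact intervals computed with SciPy 1.17.1.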

Additional observations from a re-analysis of the deposited data

How the results depend on the processing

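No paired analysis was possible because the list holds no value for any single library; for the same reason no replicate could be left out. The number of Mrpl and Mrps genes with a peak was 27 within 1000 bp, 28 at any distance, 24 with intervals of at least 200 bp (without Mrpl1, Mrpl10 and Mrps18a) and 34 by gene ends, 26 of them shared with the 27. Counting listed starts too, an alternative added after the data were seen, gave 36. The large minus small subunit difference, 5.70 percentage points, ranged from 5.07 to 9.01, and was 7.63 with Mrps18a and Mrps30 counted as large. The median width was 330 or 344.5 bp. Intervals with an end of a protein-coding neighbour within 1000 bp numbered 12, and 7 when only ends inside the interval counted. On the given strand only, CCGGAAG was in 8 windows rather than 10.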
